A study of Mus musculus with 28 samples.

Results

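The colony-stimulating factors and their receptors were followed in a mouse model of the arteriovenous fistula (AVF), the surgical connection that sends arterial flow through a vein for hemodialysis. The 8 genes, chosen by name, were *Csf1* and *Il34*, their shared receptor *Csf1r*, *Csf2* with its receptor chains *Csf2ra* and *Csf2rb*, and *Csf3* with its receptor *Csf3r*. All 8 were present among the 56980 genes of the bulk table and among the 32285 genes of each single-cell matrix. C57BL/6 mice of both sexes underwent 5/6 nephrectomy and then received a jugular-to-carotid AVF, so every vessel, contralateral veins included, came from a mouse with reduced renal mass. Bulk RNA sequencing had 1 library per vessel, from 7 contralateral jugular veins (5 from female and 2 from male mice), 8 early AVFs labeled day 3 (3 female, 5 male), 5 mid AVFs at day 10 (3 female, 2 male) and 5 late AVFs at day 21 (3 female, 2 male). Single-cell RNA sequencing had 1 library each for contralateral veins, early AVFs and late AVFs, each from pooled vessels of male and female mice, whose labels name the stage but no day. By the paper's methods, the single-cell AVFs were harvested later on average than the bulk AVFs at both the early and the late stage.

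These cytokines govern the production, survival and activation of myeloid cells. *Csf1* encodes macrophage colony-stimulating factor and *Il34* a second ligand of the same receptor, the tyrosine kinase CSF1R of monocytes and macrophages. *Csf2* encodes granulocyte-macrophage colony-stimulating factor, which binds the specific chain CSF2RA and signals through the common beta chain CSF2RB, also used by the receptors for interleukin 3 and interleukin 5. *Csf3* encodes granulocyte colony-stimulating factor, whose receptor CSF3R drives the formation and release of neutrophils.

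Summed counts per bulk library ranged from 20254173 to 67457501. Contralateral veins resembled each other less than AVFs did, with a median Spearman correlation over genes of 0.679 within the group against 0.867, 0.956 and 0.954 within early, mid and late AVFs. In bulk tissue, more cells of a type and more RNA per cell cannot be told apart, and each bulk value below carries this limit. The summed level of 8 mono/macro markers had a median of 4316 CPM (read counts scaled by TMM-adjusted library size) in contralateral veins and 22874, 12080 and 11140 CPM in early, mid and late AVFs, and 7 of these 8 markers were called higher in early AVFs. The summed level of 7 neutrophil markers had medians of 123, 1314, 292 and 140 CPM in the same order, with 3 of the 7 at a median of 0 in contralateral veins. Endothelial and smooth muscle markers, which define the vein wall, were present in every group, with summed endothelial levels from 2064 to 3660 CPM in contralateral veins and from 305 to 533 CPM in early AVFs. Summed smooth muscle levels had a median of 10941 CPM in contralateral veins and 1785 CPM in early AVFs. In early AVFs 5 of 7 endothelial and 6 of 8 smooth muscle markers were called lower. Markers of skeletal muscle also moved with the AVFs. All 5 of them were called higher in early, mid and late AVFs, with summed medians of 3.86 CPM in contralateral veins (0.209 to 30.7, with 1 marker at a median of 0) and 265, 1298 and 610 CPM in early, mid and late AVFs (5.05 to 3974, 560 to 5740 and 5.73 to 7683). The part of these cell mixtures in the results below was not tested.

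In GRCm38 coordinates (GENCODE M21), *Csf3r* lies on the plus strand at chr4:126024550-126044440, *Csf2ra* on the minus strand at chr19:61223957-61228429 and *Csf1* on the minus strand at chr3:107741048-107760469. *Csf2rb* occupies chr15:78325752-78353847 beside its near-identical copy *Csf2rb2* at chr15:78282507-78305721, between which the authors' counting could split reads. *Csf3* is found at chr11:98701263-98703629 and *Csf2* at chr11:54247271-54249667. Exons of *Csf1r*, *Csf2* and *Il34* overlap exons of genes on the opposite strand, and whether the bulk counting used strand is not given in the sources used here.

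RefSeq promoter windows (GRCm38.p6) were at hand for 4 of the 8 genes, *Csf1*, *Csf2*, *Csf2ra* and *Csf3r*. The 250 bases before the start are shown for 3 of them, the receptor gene with the largest change (*Csf3r*), another receptor gene of myeloid cells (*Csf2ra*) and a ligand gene without a called change (*Csf1*). Capitals mark matches, on either strand, to the letters GAGGAA (the core bound by PU.1, the main transcription factor of myeloid cells), TTNNGNAA (C/EBP), TGANTCA (AP-1), TTCNNNGAA (STAT), TGACGTCA (CRE) or the NF-kB consensus.
Csf3r, chr4:126024409-126024658, plus strand: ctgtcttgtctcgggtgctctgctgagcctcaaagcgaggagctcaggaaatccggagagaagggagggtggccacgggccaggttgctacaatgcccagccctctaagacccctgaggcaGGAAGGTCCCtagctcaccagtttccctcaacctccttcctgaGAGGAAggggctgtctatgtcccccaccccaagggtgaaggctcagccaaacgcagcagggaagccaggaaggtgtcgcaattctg
Csf2ra, chr19:61228419-61228668, minus strand: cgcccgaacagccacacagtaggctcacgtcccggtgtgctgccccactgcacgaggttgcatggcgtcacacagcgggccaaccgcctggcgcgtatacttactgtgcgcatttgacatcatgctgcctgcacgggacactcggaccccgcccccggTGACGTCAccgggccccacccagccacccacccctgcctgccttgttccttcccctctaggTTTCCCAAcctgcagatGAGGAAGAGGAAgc
Csf1, chr3:107760470-107760719, minus strand: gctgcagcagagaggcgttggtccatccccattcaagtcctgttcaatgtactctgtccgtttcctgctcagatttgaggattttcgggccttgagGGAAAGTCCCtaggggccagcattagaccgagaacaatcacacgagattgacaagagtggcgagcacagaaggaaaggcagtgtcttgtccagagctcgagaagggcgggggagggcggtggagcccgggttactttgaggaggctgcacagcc

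*Csf3r* held 1 match to GAGGAA, 86 to 81 bases before the start, and *Csf2ra* held 2 that abut each other, the nearer one 8 to 3 bases before the start. The RefSeq starts of *Csf3r* and *Csf2ra* lie inside the GENCODE genes given above, so the *Csf3r* match and the nearer *Csf2ra* match fall within those genes, and "start" here means the RefSeq start. The same letters occurred in 23.3% of all 32851 promoter windows of this length. The NF-kB consensus was matched once in *Csf1* and once in *Csf3r* (7.25% of all windows), the CRE letters once in *Csf2ra* (1.55%) and the C/EBP letters once in *Csf2ra* (36.8%). The AP-1 and STAT letters, present in 6.75% and 7.02% of windows, matched none of the 3. A match of this kind is a description of the sequence, not a bound site.

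Measured per length, as counts per kilobase of exon scaled to library size like CPM (FPKM), *Csf1r* was the most abundant of the 8 genes in contralateral veins at 46.4 ± 21.1 (SD, n = 7), followed by *Csf1* at 24.9 ± 13.5 and *Csf2ra* at 10.7 ± 6.80, neighbors in the order whose ranges of SD overlapped. *Csf3r* was near the bottom at 0.226 ± 0.278 FPKM. In early AVFs *Csf1r* stood at 80.2 ± 17.1 FPKM (n = 8), and *Csf3r* had moved to 26.7 ± 13.9, beside *Csf2ra* at 23.8 ± 7.87 and *Csf1* at 19.6 ± 5.72, which did not differ from one another beyond their spread. The cytokine genes *Csf2* and *Csf3* had at most 1.08 and 1.10 FPKM as group means. The values of every library are drawn in the plot of CPM by group.

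**Figure D1:**
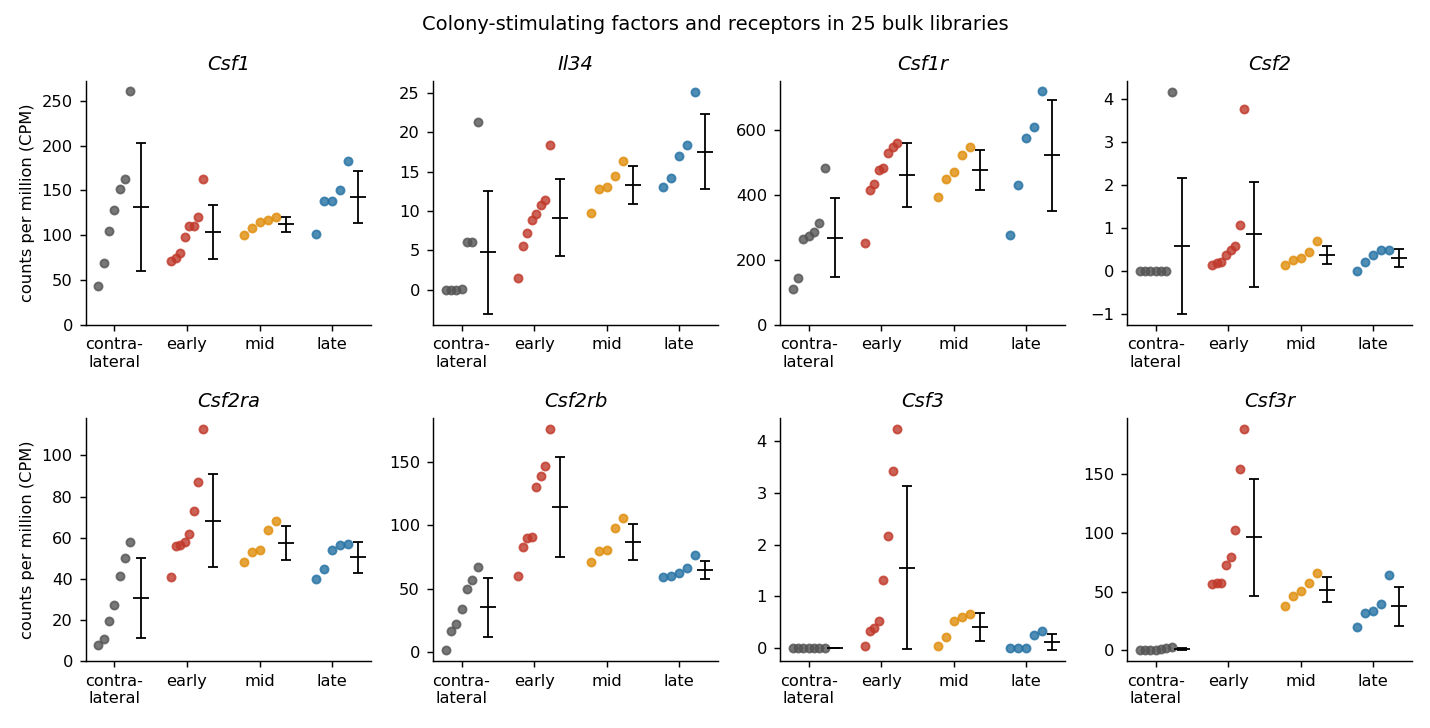
CPM (y axis, linear) of the 8 genes in each of the 25 bulk libraries by group (x axis), with each point 1 vessel ordered by value and the black bar the mean ± SD of the group. *Csf3r* was below 3 CPM in all 7 contralateral veins and above 19 CPM in all 18 AVFs, whereas the groups overlapped for *Csf1*, *Csf1r* and *Csf2ra*.

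The first comparison asked which of these genes differed between AVFs and contralateral veins, by setting each AVF time point against those veins. Surgery on the vessel and arterial flow came together in the AVFs, so their parts cannot be told apart. Of the 8 genes, 6 passed the filter on low values (a mean normalized count of 100 over the 25 libraries), and *Csf2* and *Csf3* did not. *Csf3r* passed through the AVF groups alone, since its contralateral level was close to 0. In early AVFs 2 of the 6 rose (edgeR, adjusted *p* under 0.01 and at least 2-fold), *Csf3r* and *Csf2rb*, where 6.17% of all 12673 genes tested were called higher and 12.6% in either direction. *Csf3r* was also called in mid AVFs, against a background of 2.74% of genes higher and 6.05% in either direction, and in late AVFs, against 2.49% and 5.33%. None of the 6 was called lower at any time point, where the shares of genes called lower were 6.45%, 3.31% and 2.85% in early, mid and late AVFs.

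*Csf3r*, the receptor of granulocyte colony-stimulating factor, had 1 to 61 reads in each contralateral vein. Its levels there were 0.0389, 0.0899, 0.104, 0.124, 1.29, 1.40 and 2.65 CPM. Early AVFs ranged from 56.6 CPM through a median of 76.2 to 189 CPM. Every early AVF was above every contralateral vein, a pattern shared by 4.46% of the genes tested. Mid AVFs had 38.0, 46.2, 50.6, 56.9 and 65.9 CPM. Late AVFs had 19.4, 31.4, 33.1, 39.4 and 63.8 CPM. The groups of mid and late AVFs thus also stood clear of contralateral veins, as 7.32% and 6.25% of the genes tested did, and overlapped with early AVFs. Against contralateral veins the log2 fold change of early AVFs was 6.87 (SE 0.76, adjusted *p* = 2.05e-07). It was 5.97 (SE 0.74, adjusted *p* = 3.58e-06) for mid AVFs and 5.51 (SE 0.73, adjusted *p* = 9.86e-06) for late AVFs, 3 comparisons that share the contralateral libraries. With only the 2 groups compared in the fit, the late change of *Csf3r* stayed at 5.55 on the log2 scale with an adjusted *p* of 0.0116, above the threshold. Between late and early AVFs *Csf3r* differed by -1.36 (SE 0.65, adjusted *p* = 0.305), which did not pass the test.

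*Csf2rb*, the signaling chain shared with other cytokine receptors, averaged 35.2 ± 23.6 CPM (SD, n = 7) in contralateral veins and 114.5 ± 39.3 CPM (n = 8) in early AVFs. The contralateral veins had 1.21, 16.3, 22.2, 33.6, 49.6, 56.6 and 66.7 CPM. Early AVFs ran from 60.3 CPM through a median of 110 to 176 CPM, so that the lowest AVF lay below the highest vein. The change was 1.71 on the log2 scale (SE 0.44, adjusted *p* = 0.00536). It lost the call without contralateral vein 27 (1.55, adjusted *p* = 0.0150), without contralateral vein 633 (1.58, adjusted *p* = 0.0121), in female mice alone (1.43, adjusted *p* = 0.0559) and with only the 2 groups in the fit (1.71, adjusted *p* = 0.0462). Mid AVFs, from 71.4 to 106 CPM, all lay above the contralateral veins, a pattern shared by 7.32% of the genes tested. Their change of 1.31 (SE 0.47, adjusted *p* = 0.0688) missed the threshold. Late AVFs, from 59.1 to 76.8 CPM, differed by 0.89 (SE 0.47, adjusted *p* = 0.248). The near-identical copy *Csf2rb2* averaged 8.29 ± 7.35 CPM in contralateral veins and 47.0 ± 32.6 CPM in early AVFs, a difference of 2.50 (SE 0.73, adjusted *p* = 0.0141) that was not called. Contralateral vein 632 had 31 reads for *Csf2rb* and 368 for *Csf2rb2*, while vein 28 had 910 and 1.

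*Csf2ra*, the chain that gives the receptor its specificity for the *Csf2* product, had 7.83, 10.8, 19.6, 27.1, 41.2, 50.0 and 58.1 CPM in contralateral veins. In early AVFs it ranged from 40.9 CPM through a median of 59.8 to 113 CPM, overlapping the upper veins. The difference of 1.16 (SE 0.35, adjusted *p* = 0.0159) was outside the threshold of 0.01 and inside the looser one of 0.05. DESeq2 on the same genes called *Csf2ra* (1.11, adjusted *p* = 0.00764), as did the edgeR fits without contralateral veins 28, 31 or 632 or without early AVF 1. Its differences in mid and late AVFs were 0.91 (SE 0.38, adjusted *p* = 0.120) and 0.72 (SE 0.38, adjusted *p* = 0.242).

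*Csf1r*, the macrophage receptor, had 110, 144, 265, 274, 286, 312 and 483 CPM in contralateral veins. Early AVFs had a lowest value of 253 CPM, a median of 481 and a highest of 560. Mid AVFs had 394, 450, 472, 524 and 549 CPM, and late AVFs 278, 432, 576, 609 and 721. The groups overlapped, since 5 of the 7 veins lay above the lowest AVF, and vein 632 was the highest of them. The differences were 0.79 (SE 0.25, adjusted *p* = 0.0232), 0.84 (SE 0.28, adjusted *p* = 0.0478) and 0.97 (SE 0.28, adjusted *p* = 0.0229) in early, mid and late AVFs, short of the threshold and of a 2-fold change. Without vein 632, *Csf1r* was called at each time point, at 1.00 (adjusted *p* = 0.00359), 1.05 (adjusted *p* = 0.00864) and 1.18 (adjusted *p* = 0.00393).

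The ligand *Csf1* was expressed in every vessel and did not pass the test at any time point. Contralateral veins had 43.5, 68.9, 105, 128, 151, 162 and 261 CPM. Early AVFs ranged from 71.1 CPM through 104 to 163 CPM, mid AVFs from 101 to 121 CPM and late AVFs from 101 to 183 CPM, each range lying within that of the veins. The differences were -0.34 (SE 0.27, adjusted *p* = 0.400), -0.23 (SE 0.31, adjusted *p* = 0.708) and 0.12 (SE 0.31, adjusted *p* = 0.857). In female mice alone the early and mid values of *Csf1* turned to 0.36 and 0.28, also without a call. The 2 male contralateral veins held the highest values of the group.

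*Il34*, the other ligand of *Csf1r*, was listed at 0 in 3 contralateral veins, whose other values were 0.157, 6.02, 6.09 and 21.3 CPM. Early AVFs ranged from 1.54 CPM through 9.24 to 18.4 CPM. Mid AVFs had 9.81 to 16.3 CPM and late AVFs 13.0 to 25.1 CPM, so that vein 35, the highest of the contralateral group, was exceeded by 1 AVF only. The differences of 0.94 (SE 1.01), 1.47 (SE 1.12) and 1.87 (SE 1.12) had adjusted *p* values of 0.557, 0.445 and 0.318. The ratio of *Csf1* to *Il34* CPM within a library, which could be formed in 4 of the 7 veins and in all AVFs, had medians of 3.17, 3.10 and 3.04 in the 3 AVF stages in order of time.

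*Csf3* had no read in any of the 7 contralateral veins. Early AVFs had 0.0314, 0.332, 0.390, 0.521, 1.31, 2.16, 3.42 and 4.24 CPM, from 1 to 218 reads. Mid AVFs had 0.0300 to 0.652 CPM, and late AVFs had 0.252 and 0.330 CPM in 2 vessels and 0 in the other 3. All early and mid AVFs therefore lay above the veins, at very low levels. Such a separation was seen in 4.46% (early) and 7.32% (mid) of the genes tested, which do not include *Csf3*. With no read in the veins, a single read was enough to place an AVF above them. Against an assumed floor of 3 reads over the 7 veins together, *Csf3* was 104-fold higher in early, 22.8-fold higher in mid and 5.89-fold higher in late AVFs, taking each group's pooled reads. The floor allows for counting error alone and not for differences between veins, so these folds are not firm lower bounds. In exact permutation tests on log2(CPM + 1), two-sided and unadjusted, the early and mid differences had *p* = 0.0028 and *p* = 0.00126, the latter being the smallest *p* that 5 against 7 libraries allow. The late difference had *p* = 0.152 by the same exact test. In the edgeR fit with the wider filterByExpr selection of 20076 genes, *Csf3* was called in early (adjusted *p* = 0.000485) and mid AVFs (adjusted *p* = 0.00346).

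*Csf2* was at 0 in 6 of 7 contralateral veins and at 4.17 CPM in vein 31. Early AVFs ranged from 0.149 CPM through 0.439 to 3.77 CPM, mid AVFs from 0.155 to 0.713 CPM and late AVFs from 0 to 0.495 CPM. No difference passed the exact permutation test with vein 31 included, with *p* = 0.388, *p* = 0.932 and *p* = 1 in early, mid and late AVFs. Leaving vein 31 out gave exact *p* = 0.00466, *p* = 0.00217 and *p* = 0.0152, so the outcome rests on 1 vessel.

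**Figure D2:**
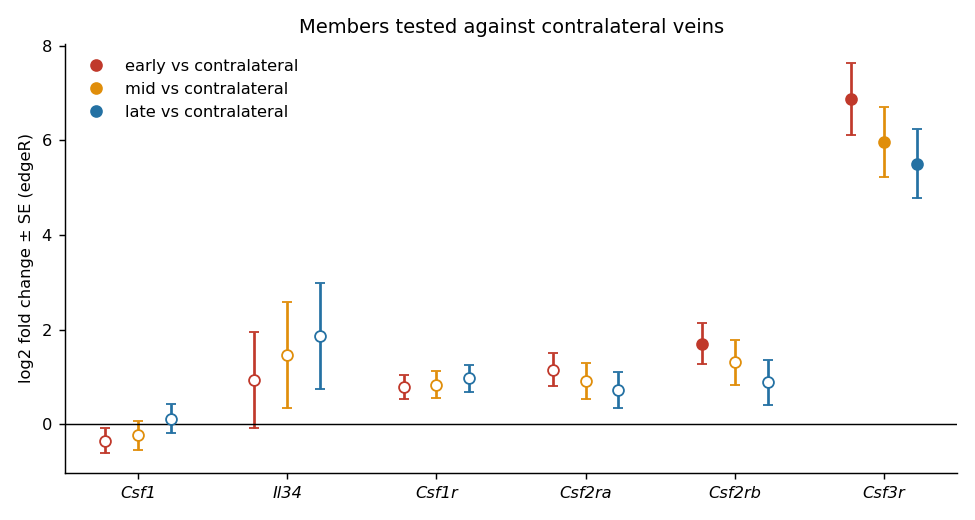
Log2 fold change against contralateral veins (y axis) of the 6 genes that passed the filter, with SE from edgeR, for early, mid and late AVFs in color. Filled points passed the threshold (*Csf3r* at all 3 time points, *Csf2rb* in early AVFs) and open points did not.

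The second comparison asked whether the genes differed among AVF stages. No gene of the 6 was called by edgeR between mid and early (background 0.00789%), late and early (3.01%) or late and mid AVFs (0%), and DESeq2 called none either. At an unadjusted *p* under 0.05 the count was 0, 1 and 0 by either tool, the 1 being *Csf3r* in late against early AVFs. In exact permutation tests *Csf3* was lower in late than in early AVFs by 0.97 on the log2(CPM + 1) scale (*p* = 0.0256), which rose to *p* = 0.0505 when late AVF 16, 23 or 24 was left out.

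The sexes were unevenly spread over the groups. A term for the difference between male and female mice in each change passed the threshold for no member (edgeR, adjusted *p* under 0.05), with 2, 2 and 3 of the 6 at an unadjusted *p* under 0.05 in early, mid and late AVFs. For early AVFs the log2 fold change in male minus that in female mice was -1.48 for *Csf1* (adjusted *p* = 0.308) and 2.33 for *Csf2rb* (adjusted *p* = 0.340). These values rest on 2 male contralateral veins.

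The macrophage receptor was set beside the macrophages' own markers in each library. *Csf1r* amounted to 3.80% to 9.73% of the summed level of the 8 mono/macro markers in contralateral veins (median 6.14%) and to 1.34% to 2.98% in early AVFs (median 2.15%), with no overlap between the groups. Mid AVFs had a median of 3.91% and late AVFs of 5.11%, inside the range of the veins. *Lyz2*, the lysozyme gene that neutrophils and monocytes also transcribe, made up most of that sum, with a median of 68.2% in contralateral veins and 80.6% in early AVFs. With *Lyz2* left out, *Csf1r* stood at a median of 20.4% of the other 7 markers in contralateral veins and 10.3% in early AVFs, and the ranges of 12.2% to 37.2% and 6.25% to 16.0% overlapped. The corresponding medians in mid and late AVFs were 20.2% and 25.7%.

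For *Csf3r* the same comparison used the neutrophil markers. Contralateral veins had 0.871 to 200.2 CPM of summed neutrophil markers and late AVFs 108 to 209 CPM, yet no contralateral vein exceeded 2.65 CPM of *Csf3r* and no late AVF fell under 19.4 CPM. *Csf3r* was 0.871% of the neutrophil marker sum at the median contralateral vein and 6.75%, 22.6% and 28.1% at the median early, mid and late AVF. The range of 0.0521% to 14.3% in contralateral veins overlapped that of 1.71% to 24.8% in early AVFs. It ended just below those of 14.4% to 33.5% in mid and 15.3% to 30.6% in late AVFs. Beside the mono/macro markers, *Csf3r* had a median of 0.0028% in contralateral veins and 0.339%, 0.419% and 0.331% in early, mid and late AVFs.

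**Figure D3:**
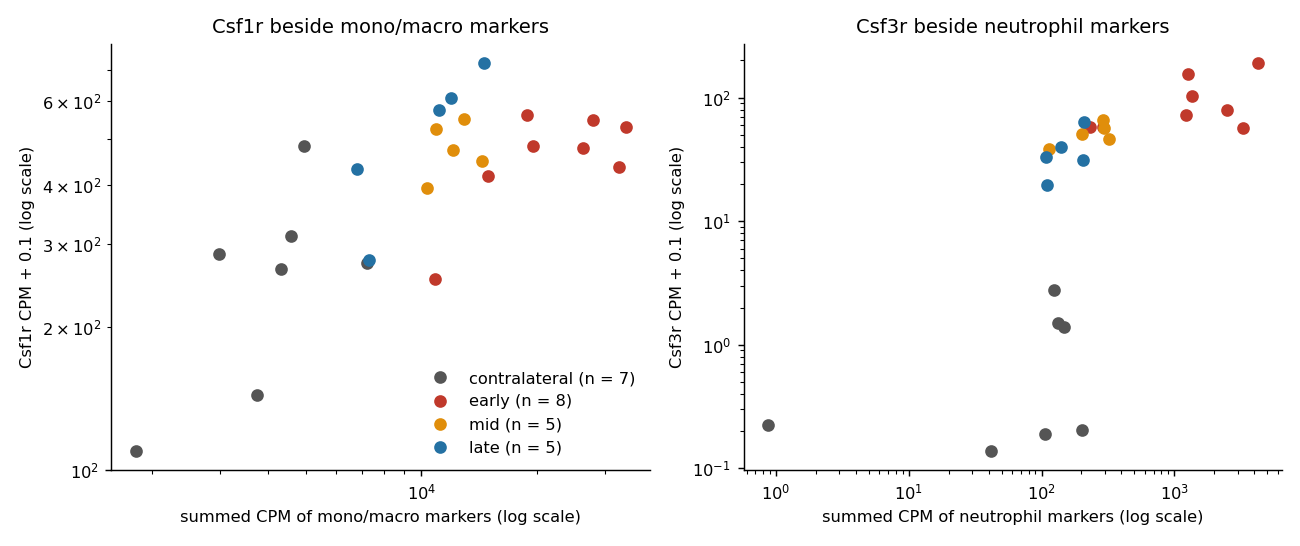
*Csf1r* plus 0.1 against the summed level of 8 mono/macro markers (left) and *Csf3r* plus 0.1 against the summed level of 7 neutrophil markers (right), in CPM on log axes, with each point 1 bulk library colored by group. At neutrophil marker sums between 100 and 210 CPM, late AVFs lay above 19 CPM of *Csf3r* and contralateral veins below 3.

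Genes of the wider pathway were counted by list, with the shares above as background. The lists had been chosen with earlier results of these data known. Of 11 related ligands and receptors 8 were tested, and in early AVFs none was called higher and 2 lower, *Kitl* (-2.03, SE 0.39, adjusted *p* = 0.000375), the ligand of the stem cell factor receptor, and *Ptprz1* (-3.53, SE 0.80, adjusted *p* = 0.00195), a phosphatase that also binds the *Il34* product. Their median change was -0.48 against -0.0067 over all genes tested. All 16 proximal signaling genes were tested, with a median of 1.05. Of these, *Fgr* (4.67, SE 1.11, adjusted *p* = 0.00294), a Src-family kinase of myeloid cells, and *Tyrobp* (3.40, SE 0.37, adjusted *p* = 1.55e-07), an adaptor of myeloid receptors, were called higher and 14 were not called.

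Among 8 negative regulators (median 0.83) *Ptpn6*, the SHP-1 phosphatase, was called higher at 2.21 (SE 0.52, adjusted *p* = 0.00268). Of 12 myeloid transcription factors 10 were tested (median 0.82), and 3 were called higher and none lower. These were *Spi1*, which encodes PU.1 (3.20, SE 0.65, adjusted *p* = 0.000755), *Irf8* (2.67, SE 0.66, adjusted *p* = 0.00402) and *Runx1* (2.07, SE 0.57, adjusted *p* = 0.00874). In mid AVFs *Tyrobp* remained called (1.49, adjusted *p* = 0.00764) and no other gene of the 4 lists was, and in late AVFs none of them was called against contralateral veins. Between AVF stages 1 gene of the lists was called, *Tyrobp*, lower in late than in early AVFs by -2.17 (SE 0.40, adjusted *p* = 0.00241).

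Similarity of pattern was described by Pearson's *r* of log2 CPM over the 25 libraries, which share groups and depth. *Csf1r* and *Csf2ra* were both closest to *Itgb2*, the leukocyte beta 2 integrin, with *r* of 0.898 and 0.932. *Csf2rb* was closest to *B4galt5* (0.956) and *Lcp1* (0.953), the latter an actin-bundling protein of leukocytes, and *Csf3r* to *Dtl* (0.978) and *Cd300lb* (0.975). *Il34* was closest to *Samd10* (0.962) and *Csf1* to *Sdc1* (0.820), a heparan sulfate proteoglycan. Among the members, *Csf1r* and *Csf2ra* had *r* = 0.824 and *Csf2rb* and *Csf3r* *r* = 0.720, and *Csf1* and *Csf2rb* *r* = -0.487.

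The single-cell libraries gave the cell classes in which these genes were found. With 1 library per condition no test was possible, and all intervals below are exact 95% intervals of counting error alone. After filtering, 6319 cells of contralateral veins, 4753 of early AVFs and 5821 of late AVFs were kept, with median depths of 2751, 8951 and 15425 UMIs per cell. Of the barcodes, 19, 14 and 16 were shared between pairs of libraries. No member was used to cluster or name the cells. Contralateral mono/macros lay mostly in cluster 10 (672 of 743 cells), led by *F13a1*, *Mrc1* and *Cd163* with *Csf1r* itself among its 10 leading genes, whereas those of early and late AVFs lay mostly in clusters 1 and 3. Contralateral fibroblasts lay mostly in cluster 2 (1667 of 1867), early ones in cluster 13 and late ones in cluster 0. Values within these classes therefore compare different cells.

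**Figure D4:**
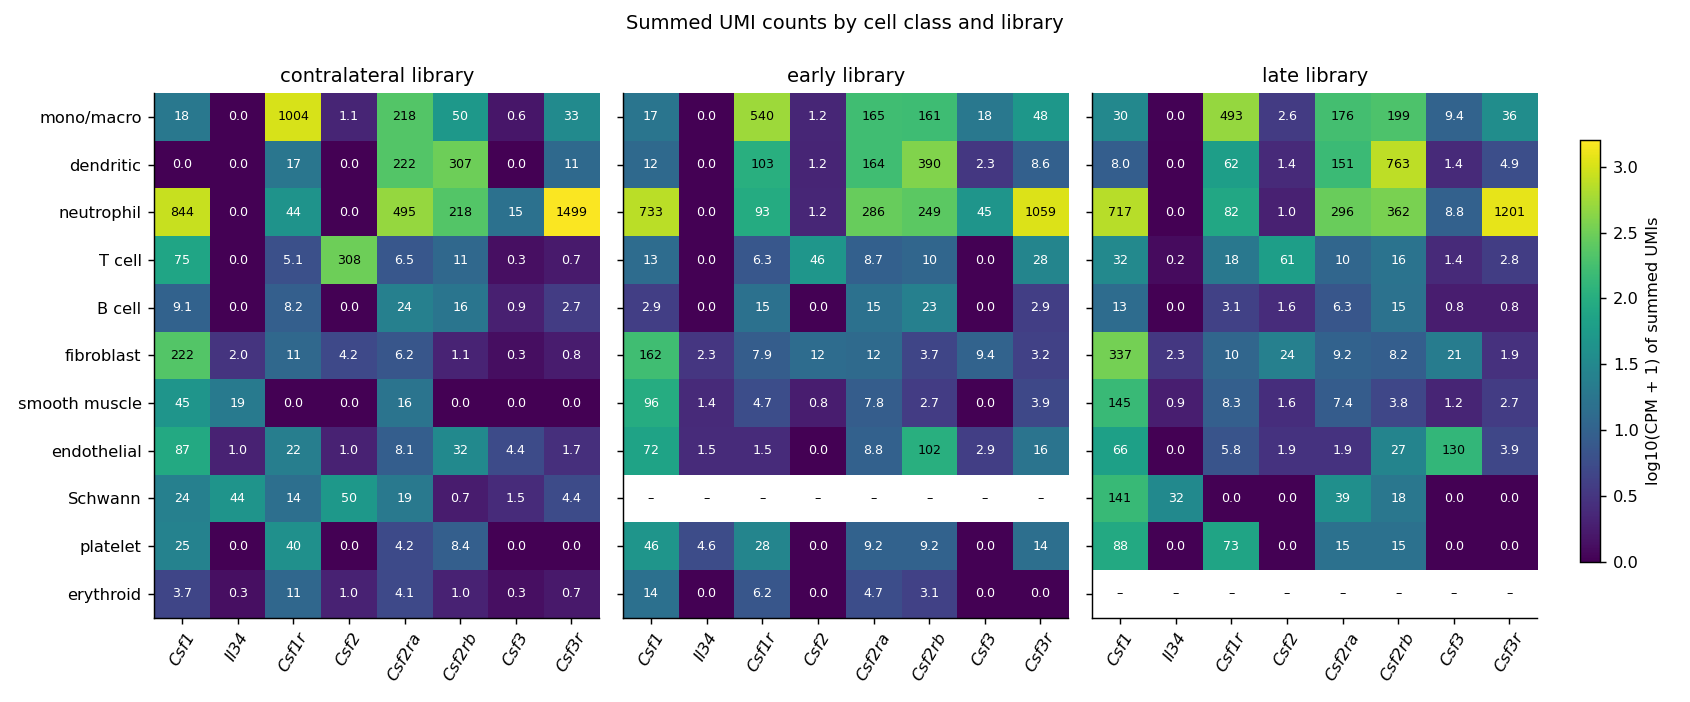
Summed UMIs of each gene (columns) as CPM of the cell class (rows) in the contralateral, early and late libraries, colored by log10(CPM + 1) with CPM printed in each cell and a dash for classes under 20 cells. *Csf1r* was highest in mono/macros and *Csf3r* and *Csf1* in neutrophils in all 3 libraries.

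*Csf1r* was found in mono/macros. They held 91.5%, 91.2% and 90.4% of its UMIs in the contralateral, early and late libraries. Its level in the class was 1004 CPM (972 to 1038) in contralateral veins, 540 CPM (531 to 549) in early and 493 CPM (484 to 502) in late AVFs. The contralateral mono/macros thus had the highest level per cell content, and the ratios to it were 0.538 (0.519 to 0.558) in early and 0.491 (0.473 to 0.509) in late AVFs. The share of mono/macros with a *Csf1r* UMI was 70.0%, 92.9% and 93.1% as sequenced and 54.0%, 40.5% and 35.9% after thinning every cell to 1000 UMIs, where deeper cells no longer counted for more. T cells, which lack the receptor, had a *Csf1r* UMI in 2.35%, 4.73% and 8.80% of cells at median depths of 3544, 5601 and 6458 UMIs. Among resident macrophage-like cells the contralateral level was again the highest, at 1044 CPM (1009 to 1079) in 701 contralateral cells, 593 CPM (531 to 661) in 60 early cells and 664 CPM (644 to 683) in 536 late cells. These were different cells, since the contralateral ones lay in subclusters 6 and 7 (390 and 294 of 701), led by *Cd209f* and hemoglobin genes, and the AVF ones in subcluster 1 (55 of 60 early and 519 of 536 late), led by heat-shock genes with no resident marker among its 10 leading genes. Monocyte-like cells had 420 CPM in early and 349 CPM in late AVFs, and inflammatory macrophage-like cells 491 and 385 CPM, the early ones mostly from subclusters 3 and 4 and the late ones mostly from subcluster 4. Mono/macros left without a subtype name had 716 CPM (696 to 735) in 527 early cells, above each named early subtype. In 573 late cells they had 463 CPM (450 to 478). Most of the early ones lay in subcluster 2 (485 cells), whose closest list was that of resident macrophages, with 5 of 5 markers up.

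*Csf1* came mainly from fibroblasts and neutrophils. Fibroblasts held 77.9% of its UMIs in the contralateral library, 34.0% in the early and 82.3% in the late library. Neutrophils held 43.2% in the early library, where they were the largest source, and had the highest level of any class in each library, at 844 CPM (723 to 979) in 61 contralateral, 733 CPM (704 to 763) in 783 early and 717 CPM (666 to 770) in 285 late cells. A *Csf1* UMI was found in 49.2%, 58.0% and 53.0% of neutrophils at median depths of 3095 to 3458 UMIs, and in 1.29% of 854 contralateral erythroid cells at a median depth of 2693, a class that should lack it. In the 61 contralateral neutrophils a single cell held 14.9% of the *Csf1* UMIs.

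Fibroblasts had 222 CPM (214 to 230) of *Csf1* in contralateral veins, 162 CPM (155 to 170) in early and 337 CPM (332 to 342) in late AVFs. Late fibroblasts thus stood at 1.52 times (1.46 to 1.58) and early ones at 0.733 times (0.691 to 0.777) the contralateral level. The highest late level was that of adventitial fibroblast-like cells at 447 CPM (438 to 455), against 241 CPM (235 to 247) in activated fibroblast-like cells. Smooth muscle cells had 45.4 CPM (24.8 to 76.2) in 30 contralateral cells, 95.6 CPM (87.1 to 105) in early and 145 CPM (139 to 152) in late AVFs, and endothelial cells 86.9, 71.5 and 65.8 CPM. Mono/macros, the main receptor-bearing class, had 17.9, 16.6 and 30.4 CPM of the ligand.

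*Il34* was sparse, with 99, 38 and 137 UMIs in the 3 libraries. Schwann cells, the glia of peripheral nerve, held 61.6% of them in the contralateral library at 44.4 CPM (34.0 to 57.0), with a UMI in 51 of 395 cells. Fibroblasts held 68.4% in the early and 83.2% in the late library at 2.25 and 2.26 CPM, close to their 2.00 CPM in contralateral veins (ratios 1.12 and 1.13, with intervals of 0.628 to 2.02 and 0.733 to 1.80). In mono/macros the total was 1 UMI over the 3 libraries. The AVF libraries held only 10 and 24 Schwann cells.

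**Figure D5:**
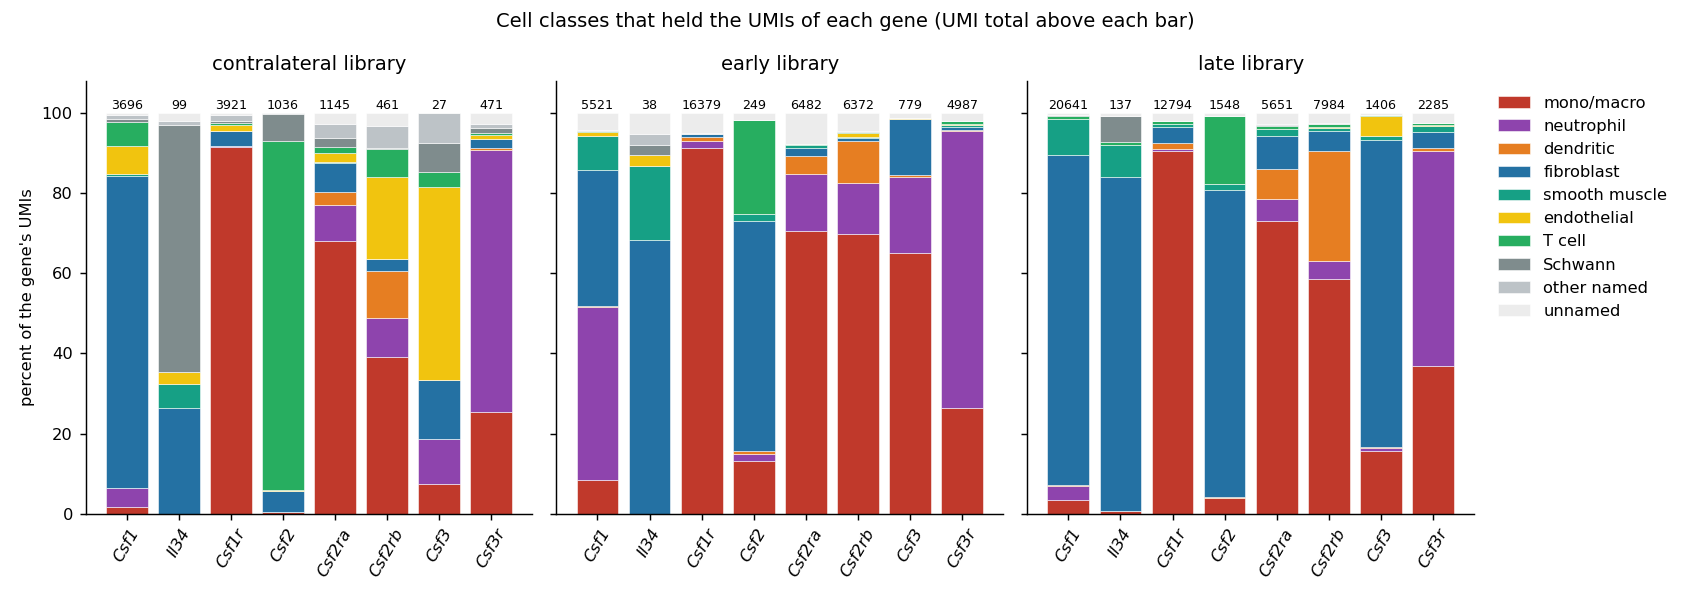
Percent of each gene's UMIs (y axis) found in each cell class (color) in the contralateral, early and late libraries, with the number of UMIs above each bar and B cells, platelets and erythroid cells joined as other named. The main source of *Csf1r*, *Csf2ra*, *Csf2rb* and *Csf3r* was the same class in all 3 libraries, while that of *Csf1*, *Il34*, *Csf2* and *Csf3* was not.

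*Csf2* came from a few cells. T cells held 87.2% of its 1036 UMIs in the contralateral library, at 308 CPM (288 to 329), with a UMI in 71 of 639 cells or 11.1% (8.78% to 13.8%). The 5 richest cells held 48.4% of the class's UMIs, so the Poisson interval, which treats UMIs as independent, is too narrow. In AVFs the T cell level was 46.4 CPM with 9 positive cells of 169 in early and 61.0 CPM with 39 of 568 in late AVFs. Fibroblasts became the largest source there, with 57.4% of 249 UMIs in the early and 76.6% of 1548 UMIs in the late library, at 12.4 CPM in 18 positive cells and 23.5 CPM (22.2 to 24.9) in 87 positive cells. A single early fibroblast held 39.9% of the class's UMIs, and the early level was 1.96 CPM without the deepest 5% of barcodes, an alternative chosen after seeing the data. Among 854 contralateral erythroid cells 3 had a *Csf2* UMI.

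The 2 receptor chains for the *Csf2* product were spread over the myeloid classes in different ways. *Csf2ra* lay mainly in mono/macros, with 68.0%, 70.5% and 73.1% of its UMIs, at 218 CPM (203 to 234) in contralateral veins, 165 CPM (161 to 170) in early and 176 CPM (171 to 181) in late AVFs. Neutrophils had more of it per UMI, 495 CPM (403 to 601), 286 CPM (268 to 305) and 296 CPM (263 to 331). *Csf2rb* in mono/macros went the other way from contralateral veins to AVFs, from 50.4 CPM (43.3 to 58.3) to 161 CPM (156 to 165) in early and 199 CPM (193 to 205) in late AVFs, ratios of 3.19 (2.75 to 3.72) and 3.94 (3.40 to 4.60). After thinning, the share of mono/macros with a *Csf2rb* UMI was 4.49%, 13.0% and 13.2%. Cells with a *Csf2rb* UMI among T cells, before thinning, were 0.782%, 5.33% and 4.23%.

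By subtype, *Csf2rb* was highest in monocyte-like cells, at 283 CPM (269 to 299) in early and 444 CPM (420 to 469) in late AVFs. Resident macrophage-like cells had 47.1 CPM (40.0 to 55.2) in contralateral veins, 57.7 CPM (39.5 to 81.5) in early and 43.7 CPM (38.9 to 48.9) in late AVFs, whose intervals overlap, with the contralateral cells in subclusters 6 and 7 and the AVF cells in subcluster 1 as above. Inflammatory macrophage-like cells had 171 CPM in early and 364 CPM in late AVFs. Differences between subtypes were not tested. Dendritic cells had the highest level of any class in late AVFs at 763 CPM (731 to 795), and 390 CPM (362 to 421) in early AVFs. Their 307 CPM in contralateral veins came from 21 cells and were 91.2 CPM without the deepest 5% of barcodes and 162 CPM with up to 20% mitochondrial counts allowed. Endothelial cells, in which the common beta chain was also seen, had 31.9 CPM (25.8 to 39.0), 102 CPM (79.6 to 129) and 27.1 CPM (14.8 to 45.4). The level of *Csf2rb2* in mono/macros was 18.5, 42.9 and 42.3 CPM.

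*Csf3* had 27 UMIs in the contralateral, 779 in the early and 1406 in the late library. Over all cells these were 0.924, 14.0 (13.0 to 15.0) and 14.3 CPM (13.5 to 15.1). The lower bulk level in late than in early AVFs was thus not seen in these libraries, whose AVFs were harvested later on average than the bulk ones. The reason was not tested. Mono/macros held 65.1% in the early library, at 18.3 CPM and with a UMI in 96 of 1865 cells or 5.15% (4.19% to 6.25%). Early neutrophils had the highest level of any class there, 45.1 CPM, from 147 UMIs in 16 of 783 cells. The 5 richest neutrophils held 89.1% of those 147 UMIs. Fibroblasts held 76.7% in the late library, at 21.4 CPM (20.1 to 22.7) and with a UMI in 84 of 1987 cells or 4.23% (3.39% to 5.21%). The 5 richest cells held 38.8% of the late fibroblast UMIs and 31.8% of the early mono/macro UMIs. The Poisson intervals of *Csf3* CPM are therefore too narrow, as for *Csf2*. T cells as a reference had a *Csf3* UMI in none of 169 early cells, for which the exact upper limit on the share of cells with a UMI is 2.16%, and in 6 of 568 late cells (1.06%). These T cells were sequenced less deeply than the mono/macros and fibroblasts. After thinning, the shares were 1.45% (0.959% to 2.11%) in early mono/macros and 0% (up to 2.25%) in early T cells. In late fibroblasts and T cells they were 1.21% (0.776% to 1.79%) and 0.178% (0.0045% to 0.986%), and the intervals overlapped. Adventitial fibroblast-like cells had 53.9 CPM (42.2 to 67.8) in early AVFs, with 8 positive of 42 cells, of which a single cell held 46 of the 73 UMIs, and 42.4 CPM (39.8 to 45.1) in late AVFs, with 59 positive of 844. The early level of all fibroblasts, 9.44 CPM, was 3.75 CPM without the deepest 5% of barcodes. The 67 UMIs of late endothelial cells came from 2 cells, 1 of which held 58.

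*Csf3r* was densest in neutrophils, at 1499 CPM (1337 to 1676) in contralateral veins, 1059 CPM (1024 to 1095) in early and 1201 CPM (1135 to 1270) in late AVFs. A UMI was found in 90.2%, 89.4% and 87.0% of them, and after thinning in 72.7%, 64.6% and 61.6%. Per cell content the receptor was thus lower in AVF neutrophils than in the 61 of contralateral veins, with ratios of 0.706 (0.629 to 0.796) and 0.801 (0.707 to 0.911). Neutrophils were 0.965% of contralateral, 16.5% of early and 4.90% of late cells. They held 65.6%, 69.1% and 53.8% of the *Csf3r* UMIs, and mono/macros 25.3%, 26.4% and 36.8% at 33.3, 47.7 and 35.8 CPM. After thinning, 3.85%, 5.22% and 4.24% of mono/macros had a *Csf3r* UMI, against 0%, 0.490% and 0.202% of fibroblasts and 0.356%, 2.47% and 0.178% of T cells. Early T cells had 27.5 CPM (19.2 to 38.3) of *Csf3r* from 9 positive cells of 169, and the interval of their thinned share (0.677% to 6.20%) includes the 5.22% of early mono/macros. Over all cells of a library the gene stood at 16.1, 89.4 and 23.2 CPM. In bulk, contralateral veins had 0.0389 to 2.65 CPM and late AVFs 19.4 to 63.8 CPM. The near absence of *Csf3r* from bulk contralateral veins was thus not seen in the single-cell library. The reason for this difference between the assays was not tested.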

How the data were processed

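Bulk and single-cell RNA-seq values were used as deposited. The authors' bulk table held raw gene counts for 25 vessels and their single-cell matrices held UMI counts for 3 libraries (Cell Ranger 6.0.2 per the matrix header). The submitters' processing notes name STAR, Cell Ranger, mm10 and GRCm38, and which step of the bulk counting used which build is not given in the sources used here. Groups, sexes and days came from the sample labels. The replicates of a bulk group were separate vessels.

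Bulk counts were scaled by TMM and tested with edgeR 4.0.16 (R 4.3.3, quasi-likelihood, 1 fit over the 4 groups) on 12673 genes with a mean normalized count of at least 100, with Benjamini-Hochberg adjustment, a threshold of 0.01 and at least 2-fold change. *Csf2* and *Csf3*, below this filter, were tested by exact two-sided permutation on log2(CPM + 1). The pipeline was tested on simulated data. DESeq2 1.42.0 served as an alternative, beside other filters, scalings, thresholds, sex as a covariate, female mice alone and omission of each library.

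Barcodes were kept between 200 and 6000 detected genes and up to a 10% mitochondrial share, then clustered with scanpy 1.11.5 and leidenalg 0.10.2 without the 8 genes, and clusters were named from marker lists. The naming rule was revised after the names had been seen, and it takes the best list with at least 3 markers up and asks shallow clusters for at least 2 own markers among the top 10 genes. The name of a class or subtype means cells like that type. One shallow cluster stayed unnamed. Scrublet called 0, 2 and 120 doublets, and so did not work in 2 libraries, where barcodes were kept. UMIs were summed per class and library, with exact intervals at 95%.

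All 8 genes are named, with 1 or 2 of the 3 genes closest in pattern to each of the 6 that passed the filter and, per pathway list, up to 3 called genes with the smallest adjusted *p* in early AVFs. The 8 genes and the lists were chosen with earlier results of these data known.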

Additional observations from a re-analysis of the deposited data

Results flagged for a closer look

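Of 31 gene and group combinations tested for a single library far from the others (Dixon's criterion), 4 stood out, where chance gives about 1 in 20. *Csf1r* in early AVF 7 was 253.438 CPM, below the next value of 416.68. *Csf2* in contralateral vein 31 was 4.1711 CPM, where the other 6 veins had none. *Csf2* in early AVF 6 was 3.77459 CPM, above the next value of 1.0887. *Il34* in contralateral vein 35 was 21.2702 CPM, above the next value of 6.08634. The causes were not tested.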

How the results depend on the processing

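No paired analysis was possible because the library numbers were not shared among the groups. With female mice alone and with only the 2 groups compared, 1 member (*Csf3r*) was called in early AVFs in place of 2. Both the filterByExpr selection and no filter gave 2 in mid AVFs (*Csf3r* and *Csf3*) in place of 1, and the fit with only the 2 groups gave 0 in late AVFs in place of 1. In female mice alone *Csf1* was at 0.36 in early against contralateral, 0.28 in mid against contralateral and -0.08 in mid against early vessels, opposite in sign to the values from both sexes. Omitting 1 library at a time left 1 to 4 members called in early, 1 to 2 in mid and 1 to 2 in late AVFs. *Csf1* then ranged from -0.41 to 0.03 in mid and from -0.05 to 0.38 in late AVFs, and *Csf1r* from -0.04 to 0.17 between mid and early AVFs. *Csf2* ranged from -0.01 to 0.38 in late AVFs and from -0.13 to 0.02 between late and mid AVFs. Of *Csf2* and *Csf3*, 1 to 2 passed the exact test (p under 0.05) in early and in mid AVFs, and 0 to 1 in late against contralateral, late against early and late against mid vessels.

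In single cells, the *Csf1r* ratio of dendritic cells to contralateral ones was 0.726 in early and 0.457 in late AVFs with up to 20% mitochondrial counts. The late to early ratio of *Csf1r* in fibroblasts was 0.9504 at resolution 1.0 and 0.859 without Scrublet doublets. The early to contralateral ratio of *Csf2* in fibroblasts was 0.679 without the deepest 5% of barcodes. Each of these 5 ratios was above 1 in the default processing, those of dendritic cells against 3 contralateral UMIs. Leaving out the deepest barcodes and counting the shallow cluster as mono/macros were chosen after seeing the data. The causes of these changes were not tested. The 2 male contralateral veins, the low counts of *Csf2* and *Csf3* and the single library per condition in single cells limit the precision.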
